A study of Mus musculus with 8 samples.

Results

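The genes that encode the subunits of the proteasome were examined on promoter arrays of DNA bound by Flag-tagged HoxB4. The members were all genes whose symbol in the array annotation began with Psma, Psmb, Psmc, Psmd, Psme, Psmf or Psmg, and 42 of the 16908 gene symbols named on the arrays met this rule. Of these, 41 encode proteasome proteins, and Psmc3ip, which encodes a protein of meiotic recombination, was picked up by its prefix alone. The rule used names and no measured value.

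HoxB4, a homeobox transcription factor, drives blood stem and progenitor cells to expand. The cells came from the mouse embryonic stem (ES) cell line B6N-22UTR, which was differentiated in embryoid bodies for 6 days. Precursors carrying c-Kit and CD41 were then placed on a feeder layer of OP9 stromal cells from bone marrow and transduced with a retrovirus for 3xFLAG-HoxB4. The c-Kit+ cells collected at day 12 of coculture by magnetic sorting gave both the Flag-IP DNA, pulled down through the Flag tag, and the input DNA, which was not enriched. HoxB4 was thus overexpressed from a retrovirus in all cells measured, and a pulldown from cells without the tag was not analysed here. Flag-IP DNA was labelled with Cy5 and input DNA with Cy3. They were hybridised together on 2 Agilent arrays with different probe sets, so each gene was measured on 1 array, with no replicate. No test was therefore possible, an SD given here is the spread over neighbouring probes of a gene, and values are descriptions of these hybridisations. The expression arrays of the same study were not used here.

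The proteasome degrades proteins that carry ubiquitin chains. Its barrel-shaped core particle is built of rings of alpha subunits (Psma genes), which form the gate, and of beta subunits (Psmb genes), some of which carry the proteolytic sites. The regulatory particle caps the core, with ATPases that unfold the substrate (Psmc genes) and other subunits that bind and remove ubiquitin or hold the cap together (Psmd genes). Activators (Psme genes) can cap the core in its place, and Psmf1 binds and inhibits the core. The subunits are made together in nearly all cells, and dividing progenitors depend on the particle for the timed destruction of cell cycle regulators.

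The 2 arrays held 237195 and 237185 probes after control spots were removed. On each, 95.3% of the probes were well above background in both channels and no probe was saturated. The median intensity was 797 in Flag-IP and 775 in input on array 1, and 743 in Flag-IP and 718 in input on array 2. The log2 ratios of Flag-IP over input were shifted so that each array had a median of 0, and single probes then had an SD of 0.913 and 0.890. Array 1 carried 18 proteasome genes and array 2 carried 24, with 2 to 58 probes for each gene. The Hoxb4 gene itself had a log2 ratio of 0.43 around its start. For each gene, the signal was summarised as the highest median of any 3 neighbouring probes (the highest window) and as the mean of the probes within 500 bp of the annotated start (the start mean).

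Most proteasome genes had a higher Flag-IP signal than the median gene, by a moderate amount. The highest window had a median log2 ratio of 1.32 over 41 proteasome genes (quartiles 1.07 and 1.55), against 0.89 over all 16663 genes with a window. It reached 1, that is, Flag-IP at 2 times input, in 32 proteasome genes (78.0%), against 41.7% of all genes. With the trend of the ratio on probe brightness removed, it reached 1 in 18 proteasome genes (43.9%), against 33.9% of all genes. Few were very high, since 2 proteasome genes (4.88%) reached 2, against 2.89% of all genes. The highest window lay within 500 bp of the start in 27 proteasome genes (65.9%) and in 36.0% of all genes. The proteasome genes had fewer windows to choose the highest from, with a median of 20 for each proteasome gene against 25 over all genes. Psma4, a core alpha subunit, had 2 probes and no window. Windows with less Flag-IP than input DNA occurred too: the lowest window was at -1 or less in 18 proteasome genes (43.9%), against 54.1% of all genes.

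The start mean does not pick a maximum, and here most proteasome genes also lay above the median gene. Its median was 0.65 over 42 proteasome genes (quartiles 0.46 and 0.94), against 0.32 over 16237 genes. It was above 0 in 41 proteasome genes (97.6%), with Psmc1 as the exception, against 73.2% of all genes. It reached 1 in 8 proteasome genes (19%), against 11.5% of all genes. With the brightness trend removed it reached 1 in 1 proteasome gene (2.38%), against 4.71% of all genes. The 2 arrays gave like values: the median start mean was 0.72 for proteasome genes and 0.34 for all genes on array 1, and 0.61 for proteasome genes and 0.31 for all genes on array 2. Without Psmc3ip the medians of the proteasome genes were 1.34 for the highest window and 0.64 for the start mean.

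**Figure D1:**
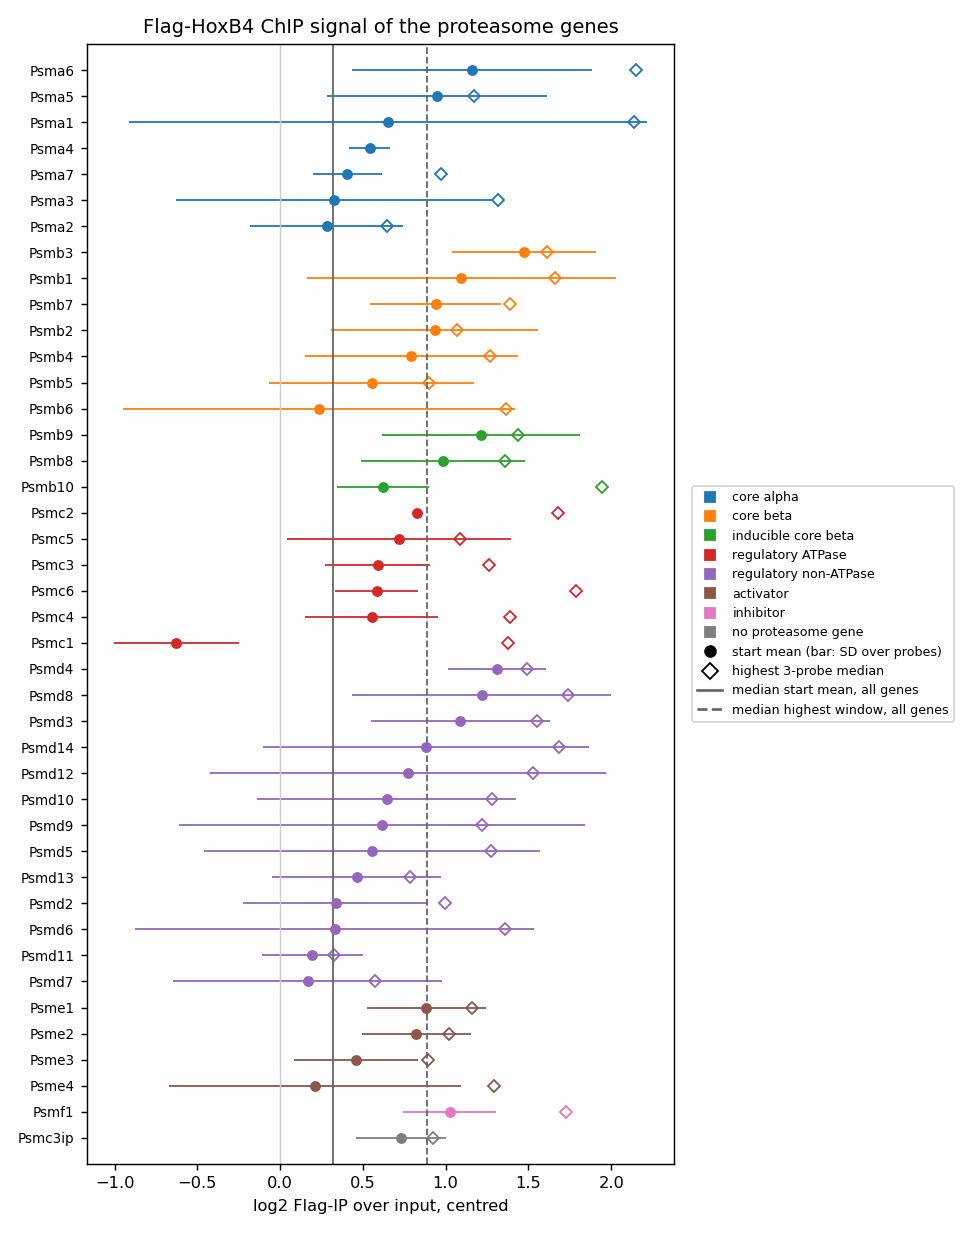
Each row is a gene of the proteasome symbol family, grouped by role. The x axis is the centred log2 ratio of Flag-IP over input, the filled point is the start mean with its SD over probes, and the open diamond is the highest 3-probe median. Vertical lines mark the medians of all genes, 0.32 for the start mean (solid) and 0.89 for the highest window (dashed). The filled points of all genes but Psmc1 lie above 0.

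The sequences before the starts are shown for the genes at both ends of the start mean, so that the letters before a start can be set beside its signal. The start mean was read over 500 bp on either side, and so only in part over these bases. They are the 250 bases upstream of the RefSeq start in build GRCm38.p6, 5′ to 3′ on the gene's strand, for genes with 1 start in that table. Since no source used here names the build of the array coordinates, the sequences were joined to the array by gene symbol. Psmb3 (chr11:97703184-97703433, plus strand), Psmd4 (chr3:95042615-95042864, minus strand), Psmd8 (chr7:29180674-29180923, minus strand), Psmb9 (chr17:34187331-34187580, minus strand) and Psmf1 (chr2:151741311-151741560, minus strand) had start means above 1. Psmd11 (chr11:80428365-80428614, plus strand) and Psmc1 (chr12:100109952-100110201, plus strand) had low ones. For Psmc1 the array annotation also lists a transcript start 2144 bp upstream. Whether its sequence precedes the start used on the array was not tested. Capitals mark letters that match the homeodomain core TAAT, the ETS site CCGGAAG or the CCAAT box, on either strand.
Psmb3: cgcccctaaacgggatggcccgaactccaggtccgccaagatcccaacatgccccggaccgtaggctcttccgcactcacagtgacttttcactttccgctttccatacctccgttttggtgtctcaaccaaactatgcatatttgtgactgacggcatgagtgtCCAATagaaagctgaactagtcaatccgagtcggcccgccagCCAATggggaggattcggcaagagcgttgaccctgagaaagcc
Psmd4: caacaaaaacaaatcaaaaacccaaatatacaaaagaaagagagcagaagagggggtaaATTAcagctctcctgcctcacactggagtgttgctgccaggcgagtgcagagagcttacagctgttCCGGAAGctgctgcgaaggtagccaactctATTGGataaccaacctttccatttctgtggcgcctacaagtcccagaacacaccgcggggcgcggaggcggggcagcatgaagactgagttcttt
Psmd8: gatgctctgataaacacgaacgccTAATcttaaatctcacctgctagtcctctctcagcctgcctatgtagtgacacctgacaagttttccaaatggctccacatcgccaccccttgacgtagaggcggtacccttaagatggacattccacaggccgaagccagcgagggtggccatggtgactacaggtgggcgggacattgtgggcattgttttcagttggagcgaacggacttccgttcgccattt
Psmb9: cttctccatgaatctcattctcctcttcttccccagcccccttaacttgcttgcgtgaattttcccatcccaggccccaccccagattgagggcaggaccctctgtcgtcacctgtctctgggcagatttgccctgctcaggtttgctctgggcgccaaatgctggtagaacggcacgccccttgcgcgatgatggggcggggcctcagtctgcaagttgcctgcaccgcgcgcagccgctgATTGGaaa
Psmf1: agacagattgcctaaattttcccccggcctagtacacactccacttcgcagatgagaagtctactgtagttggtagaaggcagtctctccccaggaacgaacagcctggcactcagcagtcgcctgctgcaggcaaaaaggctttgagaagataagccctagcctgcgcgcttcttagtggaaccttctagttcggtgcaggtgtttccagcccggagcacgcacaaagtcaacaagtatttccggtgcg
Psmd11: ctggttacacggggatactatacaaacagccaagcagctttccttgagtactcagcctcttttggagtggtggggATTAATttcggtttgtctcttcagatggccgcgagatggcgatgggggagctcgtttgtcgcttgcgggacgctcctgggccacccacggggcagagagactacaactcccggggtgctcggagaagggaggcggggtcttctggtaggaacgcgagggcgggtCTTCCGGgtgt
Psmc1: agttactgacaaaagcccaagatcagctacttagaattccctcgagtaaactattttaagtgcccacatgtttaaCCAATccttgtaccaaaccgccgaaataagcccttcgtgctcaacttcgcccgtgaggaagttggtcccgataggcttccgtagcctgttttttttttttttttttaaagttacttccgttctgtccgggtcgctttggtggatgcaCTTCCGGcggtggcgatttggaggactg

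Psmb3, a structural beta subunit of the core, had the highest start mean of the members, 1.48 ± 0.43 (SD over 5 probes). The probes read 1.70, 1.61, 1.06, 2.01 and 1.00 from -368 to 291 bp, where a minus sign marks positions upstream of the start, so all 5 lay above 0. The signal of Psmb3 was not confined to the start, since its probes from -2726 to -531 bp read 0.65 to 2.26, the highest at -1577 bp. In the sequence above, CCAAT boxes begin 85 and 43 bases before the start and no TAAT is present. Psmd4, a receptor for ubiquitin chains in the regulatory particle, had a start mean of 1.31 ± 0.30 (SD over 4 probes). Its start probes read 0.89, 1.32, 1.55 and 1.49, and a TAAT on the reverse strand lies 191 bases before the start. The highest window of Psmd4 was 1.49, centred 332 bp downstream of the start. Psmf1, the inhibitor of the core, had a start mean of 1.02 ± 0.28 (SD over 4 probes), and none of the 6 motifs searched occurs in its sequence. Psmd11, a scaffold subunit of the regulatory particle, had a start mean of 0.20 ± 0.31 (SD over 4 probes), although 2 overlapping TAAT matches begin 175 and 173 bases before its start. TAAT was thus present both in genes with a high and in a gene with a low start mean.

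The core alpha subunits form the gate of the barrel, and 2 of them had the highest windows of the family. Psma6 reached 2.15, above the highest window of 98.3% of all genes, on chromosome 12 from 56316473 to 56316796 in the array's coordinates. The probes at -525, -415 and -254 bp read 2.15, 1.93 and 2.21. Their median intensity was 3980 in Flag-IP and 999 in input. The signal dropped at the start itself, where the probe 78 bp downstream read 0.48, and the start mean was 1.16 ± 0.73 (SD over 6 probes).

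Psma1 reached 2.14 on chromosome 7 from 114066857 to 114067281, but on weaker footing. The probes at 38, 238 and 415 bp downstream read 2.14, 2.62 and 1.24, whereas the 3 probes upstream of the start read -0.84, -0.21 and -1.04. The start mean was 0.65 ± 1.57 (SD over 6 probes), so the probes on either side of the start did not overlap. Only 2 of the 3 probes of the window were well above background, with median intensities of 1440 in Flag-IP and 585 in input. With normexp, another background correction, the highest window of Psma1 was 0.79, below 1.

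The other alpha subunits lay closer to the median gene. Psma2 had the lowest window of the group, at 0.64, with a start mean of 0.28 ± 0.46 (SD over 5 probes). The remaining members with a window, Psma3, Psma5 and Psma7, had highest windows between 0.97 and 1.32. Psma3's window lay at -4837 bp, Psma7's at 3565 bp and Psma5's over the start. Psma4 was measured by its start mean alone, 0.54 ± 0.12 (SD over 2 probes). Over the group, the median start mean was 0.54, and all 7 start means were above 0 (against 73.2% of all genes). At least 3 probes from 5000 to 2000 bp upstream were present for 4 of the alpha genes. The start mean was above the mean of those probes in 3 of these 4 (75%, against 78% of all genes). The median difference was 1.14, against 0.53 over all genes.

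The constitutive beta subunits of the core were the subgroup whose windows were all centred near the start. In all 7 genes the highest window was centred within 500 bp of the start (against 36.0% of all genes), and 6 of the 7 reached 1 (85.7%, against 41.7% of all genes). Their median was 1.37 for the highest window and 0.93 for the start mean. The 5 of them with at least 3 probes from -5000 to -2000 bp all had a start mean above that upstream mean (against 78.0% of all genes). The median difference was 1.46 on the log2 scale, against 0.53 over all genes. Psmb3 and Psmb1, both structural subunits, had the highest windows of the subgroup. With the brightness trend removed, these windows were 1.49 and 1.19, and those of the rest of the subgroup lay between 0.46 and 0.86, below 1. After that step, 33.9% of all genes reached 1.

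Psmb1 reached 1.66 on chromosome 17 from 15203036 to 15203347, with start probes at 1.58, 0.94, 2.32, 1.66, 0.11 and -0.05 from upstream to downstream. The 4 probes from -333 to 25 bp were thus high and the 2 further downstream near 0. The upstream side faces Tbp, the gene of the TATA-binding protein, whose start lies 1633 bp away. The start mean was 1.09 ± 0.93 (SD over 6 probes) for Psmb1 and 1.36 for Tbp, and 3 of the probes near the Psmb1 start are annotated to both genes. Over probes that name Psmb1 alone, its highest window was 0.43 and its start mean 0.58. Psmb3 likewise shares probes with Pcgf2, a Polycomb gene whose start lies 3087 bp away. Its highest window of 1.61, on chromosome 11 from 97518967 to 97519290, was one that both genes name, and over probes that name Psmb3 alone it was 0.997.

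The subunits with proteolytic sites, Psmb5 (chymotrypsin-like), Psmb6 (caspase-like) and Psmb7 (trypsin-like), had highest windows of 0.90, 1.37 and 1.39. Psmb6 had the lowest start mean of the 3, 0.24 ± 1.18 (SD over 7 probes). Its probes at -307 and -168 bp read -1.21 and -1.36, and those at -51, 134 and 295 bp read 1.62, 0.95 and 1.37. The step thus lay between -168 and -51 bp. Psmb2 and Psmb4 had highest windows of 1.07 and 1.27, both over the start.

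The inducible catalytic subunits replace their constitutive counterparts in the immunoproteasome, the form that interferon gamma induces and that favours peptides for presentation by MHC class I. All 3 on the arrays reached 1, with a median of 1.43, where 41.7% of all genes reached 1. They also did so with the brightness trend removed, where 33.9% of all genes reached 1. Psmb9, the counterpart of Psmb6, had a highest window of 1.43 on chromosome 17 from 33797122 to 33797494, and a start mean of 1.21 ± 0.60 (SD over 6 probes). Its start probes read 1.30, 0.76, 0.45, 1.43, 1.16 and 2.18, all above 0. The neighbouring Tap1, a subunit of the peptide transporter of the endoplasmic reticulum, starts 549 bp away in the other direction and had a start mean of 0.63.

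Psmb8, the counterpart of Psmb5, had a highest window of 1.36 and a start mean of 0.98 ± 0.50 (SD over 7 probes). With normexp its highest window was 0.87. Psmb10, the counterpart of Psmb7, had the third highest window of all members, 1.94, but 1992 bp downstream of the start, on chromosome 8 from 108824997 to 108825389. The probes there read 2.23, 0.97 and 1.94, while the 4 probes around the start read between 0.25 and 0.86, with a start mean of 0.62 ± 0.28 (SD). The thymus-specific subunit Psmb11, listed under an older symbol, had a highest window of 0.80 and a start mean of -0.06 ± 0.54 (SD over 6 probes).

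**Figure D2:**
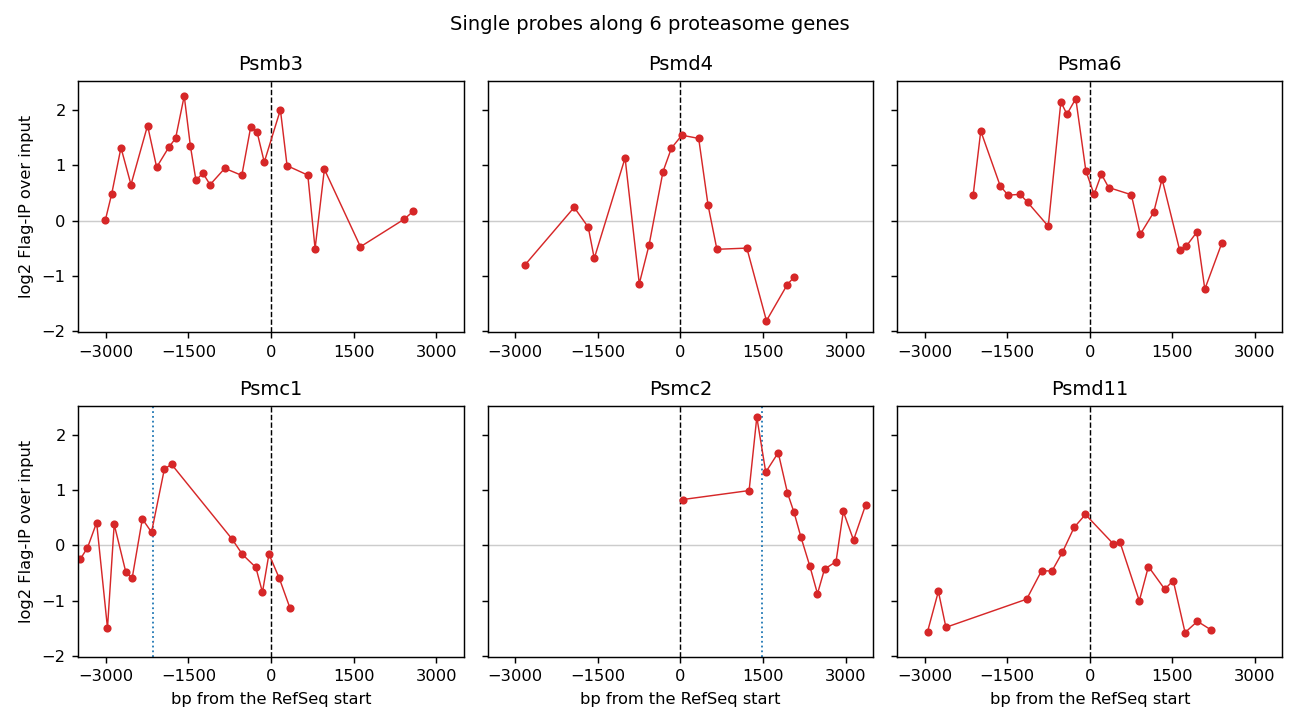
Single probes of 6 proteasome genes, with the distance from the RefSeq start in bp on the x axis (dashed line at the start) and the centred log2 ratio of Flag-IP over input on the y axis. Dotted lines mark another transcript start listed for Psmc1 and Psmc2. Psmb3 and Psmd4 read above 0 at every probe within 500 bp of the start, Psma6 was highest upstream of its start, and Psmc1 and Psmc2 were highest near the other listed start. The highest probe of Psmd11 in the range shown read 0.56.

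The ATPases of the regulatory particle unfold the substrate and thread it into the core. All 6 had a highest window of 1 or more (against 41.7% of all genes), with a median of 1.38. The window lay within 500 bp of the RefSeq start in 1 of them, Psmc5 (16.7%, against 36.0% of all genes). Their median start mean was 0.59, and none reached 1. At least 3 probes from 5000 to 2000 bp upstream were present for 4 of the ATPase genes. The start mean was above the mean of those probes in 2 of these 4 (50%, against 78% of all genes). The median difference was 0.03, against 0.53 over all genes. For Psmc1 and Psmc2 the annotation of the arrays lists a further transcript start, and the signal lay near that one. Other members with such a start went both ways. The mean there was lower than at the RefSeq start for Psma1 (-0.40 against 0.65) and Psmb3 (0.88 against 1.48). It was higher for Psma5 (1.03 against 0.95) and Psme4 (0.86 against 0.21).

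Psmc1 had the lowest start mean of all members, -0.63 ± 0.38 (SD over 5 probes). The 5 probes read -0.40, -0.85, -0.16, -0.60 and -1.13, with intensities of 185 to 952 in Flag-IP and 386 to 1250 in input, so all 5 were below 0. A second transcript, BC003860, starts 2144 bp upstream, where 6 probes had a mean of 0.41 ± 0.88 (SD). The highest window of Psmc1, 1.38, lay 206 bp from that start, on chromosome 12 from 100511186 to 100511593, with probes at 0.24, 1.38 and 1.47. Among windows within 1000 bp of the RefSeq start, the highest was -0.16.

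Psmc2 was measured by 1 probe near its RefSeq start, at 0.83. A transcript starting 1482 bp downstream, BC005462, had a mean of 1.45 ± 0.57 (SD over 5 probes). The highest window of Psmc2, 1.68, was centred 68 bp from that start, on chromosome 5 from 21298472 to 21298908, with probes at 2.32, 1.32 and 1.68. For Psmc6 the highest window of 1.78 was centred at -7515 bp, on chromosome 14 from 44243974 to 44244593, with probes at 1.49, 1.78 and 2.24. It is also annotated to Ero1l, an oxidase of the endoplasmic reticulum. Over probes that name Psmc6 alone it was 0.94, and the start mean of Psmc6 was 0.58 ± 0.25 (SD over 4 probes). Psmc3 and Psmc4 had highest windows of 1.26 and 1.39, both more than 2000 bp from the start. The window of Psmc3 held a probe at -2.15 beside probes at 1.28 and 1.26.

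The other subunits of the regulatory particle had highest windows from 0.32 to 1.74. Of 13 Psmd genes, 9 had a highest window of 1 or more (69.2%, against 41.7% of all genes). It lay within 500 bp of the start in 10 (76.9%, against 36.0% of all genes), and all 13 start means were above 0 (against 73.2% of all genes). The medians were 1.28 for the highest window and 0.61 for the start mean. In all 7 genes with at least 3 probes from -5000 to -2000 bp, the start mean was above that upstream mean (against 78.0% of all genes). The median difference was 0.83, against 0.53 over all genes. With the brightness trend removed, the highest windows of Psmd4, Psmd5 and Psmd9 were 0.94, 0.99 and 0.92, below 1. The others of the 9 stayed at 1 or more.

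Psmd8, a subunit of the lid of the particle, had a highest window of 1.74 on chromosome 7 from 28888665 to 28889096. Its start probes read 1.28, 0.66, 0.62, 0.51, 2.49 and 1.74, with a start mean of 1.22 ± 0.78 (SD over 6 probes), so the signal was strongest downstream of the start. With windows of 5 probes its highest value was 0.85, below 1. The median intensity over the window was 9270 in Flag-IP and 1580 in input. Psmd14, the deubiquitinase that removes ubiquitin chains, reached 1.68 on chromosome 2 from 61512547 to 61512908. Its 3 probes upstream of the start read -0.11, 0.66 and -0.36 and the 3 downstream 1.68, 2.07 and 1.35. The probes downstream were thus all above those upstream, and the start mean was 0.88 ± 0.98 (SD over 6 probes).

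The lid subunits Psmd3 and Psmd12 had highest windows of 1.55 and 1.53, also just downstream of the start, on chromosome 11 from 98498742 to 98499148 (Psmd3) and from 107295551 to 107296012 (Psmd12). Psmd3 had a start mean of 1.09 ± 0.54 (SD over 4 probes), and with windows of 5 probes its highest value was 0.65. Psmd12 had start probes from -1.09 at -417 bp to 1.97 at 370 bp, and its start mean was 0.77 ± 1.19 (SD over 5 probes). Psmd5, Psmd9 and Psmd10 encode chaperones that assemble the ATPase ring and leave the finished particle, and their highest windows were 1.27, 1.22 and 1.28. Psmd10 starts 235 bp from Atg4a, an autophagy protease gene, which had a start mean of 1.42. The upstream probes of Psmd10, on the side of Atg4a, read 1.28 and 1.57, and its downstream probes 0.26, 0.47 and -0.36. With normexp its highest window was 0.60, and over probes that name Psmd10 alone 0.26.

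The low end of the family also lay among the Psmd genes. Psmd11 had the lowest highest window, 0.32, above that of 14.7% of all genes, with probes at -0.13, 0.32 and 0.56 on chromosome 11 from 80244295 to 80244765. Its probes were not dim, with median intensities of 3080 in Flag-IP and 1990 in input. Psmd7, a lid subunit that pairs with Psmd14, had a highest window of 0.57 and a start mean of 0.17 ± 0.81 (SD over 4 probes). Psmd13, another lid subunit, had a highest window of 0.79. Its start lies 84 bp from that of Sirt3, a mitochondrial deacetylase gene, and the start mean was 0.46 ± 0.51 (SD over 3 probes) for Psmd13 and 1.104 (4 probes) for Sirt3. Psmd2 and Psmd6 had highest windows of 0.99 and 1.36 and start means of 0.33 and 0.33.

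The activators gave lower values than the core beta subunits, with a median highest window of 1.09. Psme1 and Psme2, which form the activator ring that interferon gamma induces, had highest windows of 1.16 and 1.02 and start means of 0.88 ± 0.36 (SD over 5 probes) and 0.82 ± 0.33 (SD over 7 probes). All 5 and all 7 of these probes were above 0. With the brightness trend removed, the highest windows of Psme1 and Psme2 were 0.64 and 0.69. Psme3, a nuclear activator, had a highest window of 0.89, centred 4539 bp downstream, and a start mean of 0.46 ± 0.37 (SD over 7 probes). Psme4, an activator with roles in histone turnover, had a start mean of 0.21 ± 0.88 (SD over 4 probes). At another transcript start 547 bp downstream the mean of Psme4 was 0.86 ± 0.37 (SD over 4 probes), and its highest window of 1.29 was centred 229 bp from that start. Psmf1 had a highest window of 1.73 on chromosome 2 from 151430886 to 151431233, 1653 bp downstream of the start, with probes at 1.19, 1.73 and 1.80.

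No symbol on the arrays began with Psmg, the prefix of the chaperones that assemble the core. Of these, 3 were present under older symbols and are not counted among the members. Psmg1, listed as Dscr2, had a highest window of 1.11 and a start mean of 0.44 ± 0.57 (SD over 7 probes). Psmg2, listed as Tnfsf5ip1, had 0.76 and 0.59 ± 0.38 (SD over 6 probes), and Psmg3, listed as 1810042K04Rik, had 0.90 and 0.79 ± 0.37 (SD over 4 probes). Psmc3ip, the member that is not a proteasome gene, had a highest window of 0.92 and a start mean of 0.73 ± 0.27 (SD over 6 probes).

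Along the gene, the proteasome genes and all genes followed a similar course, with the highest medians just downstream of the start. From 0 to 250 bp downstream the median over genes was 0.89 for 37 proteasome genes and 0.40 for all genes. There, 35 of the 37 were above 0, and the lower quartile of all genes, 0.06, was above 0 too. From 250 to 500 bp it was 0.75 for 38 proteasome genes and 0.35 for all genes. From -5000 to -3000 bp it was -0.20 for 25 proteasome genes and -0.32 for all genes. By the median, the proteasome genes were below all genes from -3000 to -2000 bp, at -0.45 against -0.26, and from -1000 to -500 bp, at -0.19 against -0.03. From -2000 to -1000 bp they were above, at 0.10 against -0.18. By the mean, they were close to all genes from -3000 to -2000 bp (-0.33 against -0.32) and above from -1000 to -500 bp (0.03 against -0.10). The start mean exceeded the mean from -5000 to -2000 bp in 20 of 23 proteasome genes with at least 3 probes there (87.0%), against 78.0% of all genes. The median difference was 0.83 for proteasome genes and 0.53 for all genes.

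**Figure D3:**
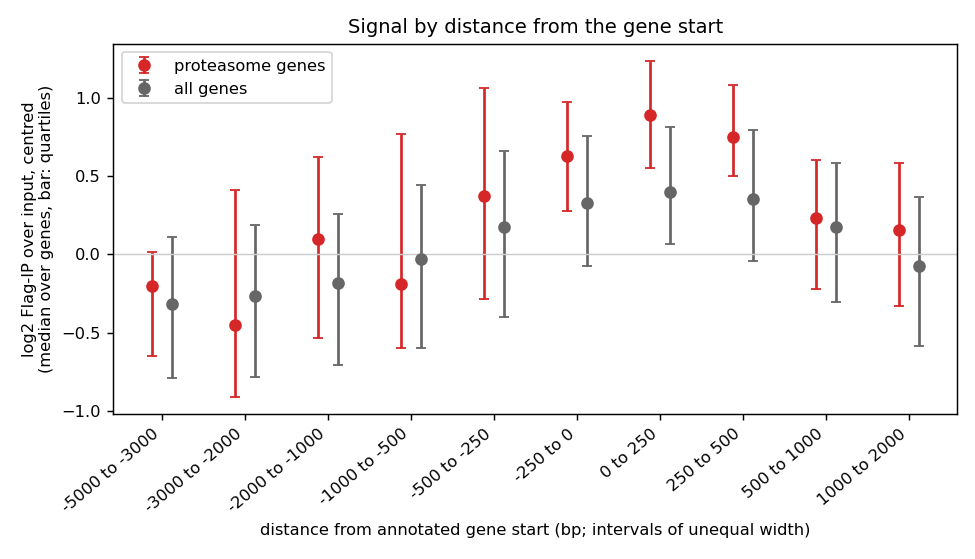
Medians over genes, with quartiles as bars, of the centred log2 ratio of Flag-IP over input, by distance from the annotated start in bp (intervals of unequal width). Proteasome genes are red and all genes grey. The gap between them is widest from 0 to 250 bp downstream, at 0.89 for proteasome genes and 0.40 for all genes, and from -5000 to -3000 bp both medians are below 0.

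Other families of genes that nearly all cells use also lay above the median gene. The 80 genes of the cytosolic ribosome had a median highest window of 1.42 and a median start mean of 0.90, and 40% of them had a start mean of 1 or more, against 19% of the proteasome genes. The 72 genes of the mitochondrial ribosome had medians of 1.16 and 0.82, with 33.3% at a start mean of 1 or more. The 12 Mediator genes, whose complex links transcription factors to RNA polymerase, had medians of 1.55 and 0.83, and 1 of them (8.33%) had a start mean of 1 or more, against 11.5% of all genes. These differences between families were not tested.

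The genes that supply ubiquitin or act on the proteasome, a list chosen by function, had a median highest window of 1.12 over 25 genes measured of the 30 listed. Of these, 17 reached 1 (68.0%, against 41.7% of all genes), and the median start mean was 0.58. The 3 highest were Zfand2a, a stress-induced proteasome partner, at 2.26, Usp14, a deubiquitinase bound to the particle, at 1.81, and Rps27a, a gene for ubiquitin fused to a ribosomal protein and counted in both lists, at 1.75. The 2 lowest were Ddi2 (0.45), a protease, and Ngly1 (0.56), a deglycosylase, both of which activate the proteasome gene regulator Nfe2l1. Nfe2l1 itself had a highest window of 1.54 and a start mean of 0.32.

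The genes of MHC class I antigen processing, which use the peptides that the proteasome makes, had a median highest window of 1.07 over 8 genes measured of the 10 listed, and 6 of them reached 1 (75%, against 41.7% of all genes). Calr, the chaperone calreticulin, stood highest at 2.17 with a start mean of 2.02 ± 0.22 (SD over 5 probes). Tapbp, which bridges the peptide transporter and class I molecules, followed at 1.91 and the chaperone Canx at 1.28. The 2 lowest were the interferon regulator Irf1 (0.48) and the disulfide isomerase Pdia3 (0.93).

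The proteasome promoters were then searched for short motifs on both strands, over the 250 bases before the start, in the 33 members with 1 start in the RefSeq table. TAAT, the core that homeodomain proteins such as HoxB4 bind, was present in 15 of the 33 (45.5%), against 54.9% of all 32851 promoters in the table and 47.5% of the 8242 genes with 1 promoter and a start mean. TGATNNAT, a form of the joint Hox and Pbx site, was present in 0 of 33, against 7.68% of all promoters and 6.04% of the genes measured. The ETS site CCGGAAG was present in 10 (30.3%), against 6.91% of all promoters and 10.2% of the genes measured. CCAAT was present in 12 (36.4%, against 33.8% of all promoters and 36.5% of the genes measured), TGACNNNGC, the core of the antioxidant response element, in 5 (15.2%, against 10.2% and 11.1%), and the cyclic AMP element TGACGTCA in 0 (against 1.55% and 2.18%). A CCAAT or TAAT match can fall inside a longer match of another motif, and a match is a run of letters, not a bound site.

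Members with TAAT or the ETS site had lower start means than members without it, by their medians. The median start mean was 0.54 for the 15 members with TAAT and 0.75 for the 18 without, and over all measured genes 0.23 with TAAT and 0.39 without. For the ETS site it was 0.40 in the 10 members with it and 0.64 in those without, whereas over all measured genes it was 0.66 with it and 0.29 without. For CCAAT it was 0.65 in the 12 members with it and 0.58 in those without. Promoters of members held a median of 15.0 CpG dinucleotides, against 12.0 over all measured genes. Their median GC content was 57.6%, against 57.2%. The 1 member with 0 to 4 CpG had a start mean of 0.62, against a median of -0.18 over all 2284 genes in that range. Among the 10 members with 5 to 12 CpG the median start mean was 0.89, against 0.40 over all 1928 genes in that range. Among the 18 members with 13 to 20 CpG it was 0.57, against 0.55 over all 2108 genes, so in this range the members lay close to other genes of like CpG number. The 4 members with 21 to 53 CpG had a median of 0.55, against 0.39 over all genes in that range. From the lowest range to the highest, the start mean was 1 or more in 0 of 1, 4 of 10, 1 of 18 and 0 of 4 members. Over all genes in the same ranges the shares were 3.9%, 15.2%, 18.2% and 11.1%. Across genes, which are not independent replicates, Pearson's r between CpG number and start mean was -0.17 over the 33 members and 0.34 over the 8242 genes. Between GC content and start mean it was 0.09 over the members and 0.40 over the 8242 genes.

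Signal strength moved with the result. Near the start, the median intensity of the proteasome genes was 1950 in Flag-IP and 1150 in input, and that of all genes 1510 in Flag-IP and 1030 in input. Across all genes, brightness of the input and the start mean had a Pearson's r of 0.34, and across the 42 members 0.13. Next, the trend of the log2 ratio on brightness was removed from each array, with brightness as the mean log2 intensity of both channels. This brightness includes the Flag-IP signal itself, so the step is no correction for input brightness alone. The median highest window was then 0.96 for proteasome genes and 0.81 for all genes. Then 18 proteasome genes (43.9%) reached 1, against 33.9% of all genes. The median start mean was 0.47 for proteasome genes and 0.19 for all genes after this step, but 1 proteasome gene, Psmb3 at 1.24, still reached 1 (2.38%), a share below the 4.71% of all genes. The higher median of the proteasome genes thus remained, and their excess of start means of 1 or more did not.

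**Figure D4:**
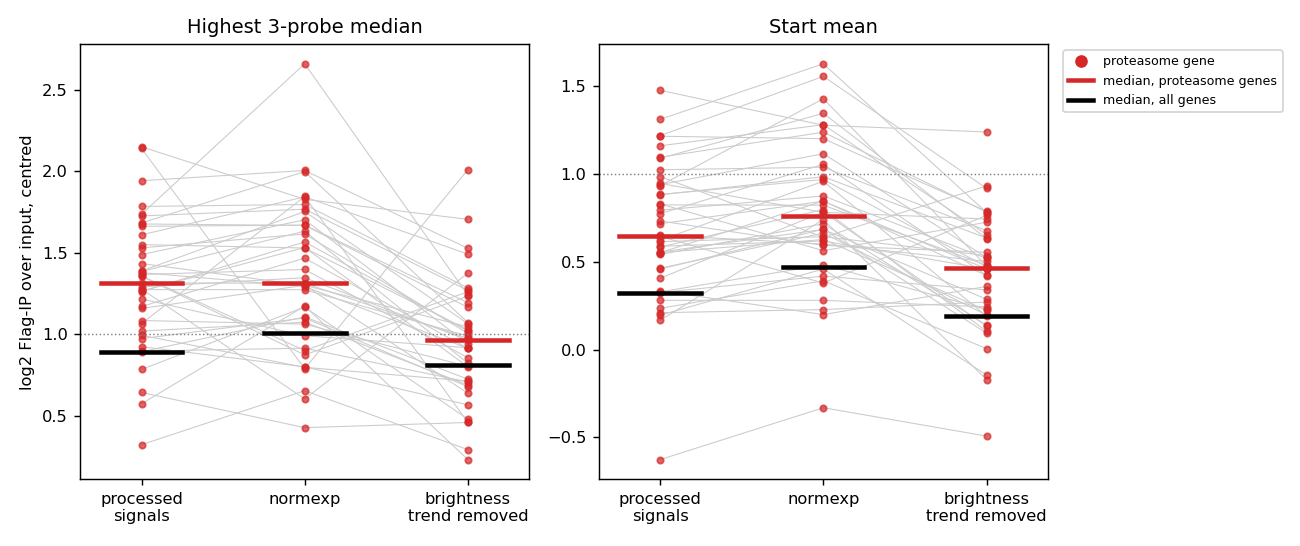
The highest 3-probe median (left) and the start mean (right) of each proteasome gene (points, joined by grey lines) under 3 ways of making the centred log2 ratio of Flag-IP over input on the y axis. Red bars mark the medians of the proteasome genes and black bars those of all genes, and the dotted line marks 1. The red bar lies above the black one in all 6 columns, by 0.43 at most and 0.15 at least.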

How the data were processed

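Binding was measured in 2 two-channel hybridisations, 1 for each probe set, with Flag-IP DNA in Cy5 and input DNA in Cy3, per the labels. Both DNAs were amplified with T7 RNA polymerase, per the labels' protocols. Per the file headers, the deposited intensities were processed in Agilent Feature Extraction 10.1.1.1 by background subtraction, detrending over the slide and a linear scaling of each dye. The deposited log10 ratios, in the scanner files and in the value tables, had medians of 0.0181 and 0.0207 and so were not centred. No source used here names the genome build.

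Control spots and probes marked as outliers (19 and 38) were left out. Log2 ratios were computed and centred by subtracting each array's median. Windows held 3 neighbouring probes with starts at most 1000 bp apart, all naming the gene, and the start mean took probes within 500 bp of the start. There were 425939 windows. The number of arrays limits the precision, and no test was made. Normexp (offset 50) and the brightness trend (loess, span 0.3) used limma 3.58.1 in R 4.3.3, and the rest Python 3.11.15 with pandas 2.3.3. For the trend, the brightness of a probe was the mean log2 intensity of both channels. The scripts were tested on simulated data with less spread between probes than these arrays have. That check was of the start mean alone, not of the highest window. All members were accounted for. The highest window and the start mean were given for the 12 highest and 5 lowest by highest window, the 8 highest and 5 lowest by start mean, and the inducible, activator and inhibitor genes. Members, lists and motifs were chosen with earlier results of these data known. The expression arrays were not used because no table pairs their probe sets with genes here. Promoter sequences are from RefSeq, build GRCm38.p6, and 36 members matched by symbol, 33 of them with 1 start.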

Additional observations from a re-analysis of the deposited data

How the results depend on the processing

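The median of the proteasome genes lay above that of all genes under all 10 alternatives of each measure, and their share at 1 or more under 10 of 10 for the highest window and 8 of 10 for the start mean. Among these, the deposited log ratios, the deposited value tables and the omission of Psmc3ip could hardly differ from the main setting, so they add little. With the brightness trend removed, the median highest window was 0.96 (0.81 over all genes) with 18 genes at 1 or more, and the median start mean 0.47 (0.19 over all genes) with 1 gene at 1 or more. With 5-probe windows the median was 1.05 (0.69 over all genes), with 21 genes at 1 or more (51.2%, against 26.7% of all genes). With normexp the median start mean was 0.76 (0.47 over all genes), and over probes within 1000 bp it was 0.50 (0.23 over all genes) with 2 genes at 1 or more (4.76%, against 5.74% of all genes). With the median in place of the mean over probes it was 0.79 (0.33 over all genes). The highest window of Psmc1 turned to -0.16 among windows within 1000 bp of the start. Normexp shifted the median of all genes by 0.12 for the highest window and 0.15 for the start mean, and the trend removal by -0.07 and -0.13. The causes of these shifts were not tested. The deposited log10 ratios and value tables gave the same values for the proteasome medians and counts. Of the 32 genes at 1 or more, 27 stayed there with normexp, 28 over probes that name 1 gene and 32 over probes well above background.

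No paired analysis was possible because each promoter probe set was hybridised once. Each region has 1 hybridisation of 1 pulldown, so the spread between cultures is unknown, and no pulldown without the tag was used here. Ratios of dim probes have little signal over background, and in the window of Psma1 only 2 of the 3 probes were well above background.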

Other observations

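The lowest window of a gene was at -2 or less in 2 proteasome genes (4.88%), against 11.5% of all genes. One was Psmd14, at -3.34, 87752 bp downstream of the start, and the other Psmd6, at -3.47, centred at -1370 bp. Of the probes of Psmd14, 24 of 28 were well above background, and of those of Psmd6, 12 of 14. The proteasome genes also had fewer windows, with a median of 20 against 25 over all genes, and the part of this in the shares was not tested.

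A further gene known by a proteasome symbol, Psme3ip1, which encodes a partner of the nuclear activator, was listed under 2310065K24Rik and is no member. Its highest window was 1.72 and its start mean 1.01 ± 0.52 (SD over 5 probes), both above those of Psme3 itself (0.89 and 0.46).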
